A study of Mus musculus with 9 samples.

Results

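RNA recovered with YTHDF2 by RNA immunoprecipitation (RIP, 3 libraries) was set against RNA from samples that overexpressed YTHDF1 and YTHDF2 (OE, 3 libraries), gene by gene. The RIP table and the OE table were joined on the gene identifier after blank rows were dropped, which left 194 genes: all 194 of the RIP table and 194 of the 237 of the OE table. All 6 libraries were made from mPFC, the medial prefrontal cortex, of the strain C57BL/6, and total RNA was the labelled molecule. The labels do not say whether the OE or RIP samples were fractionated. The RIP libraries carry the label YTHDF2 RIP and the OE libraries YTHDF1+2 OE, numbered 1 to 3 in each. The labels give no age, sex, vector, promoter, cell type of expression or antibody for these groups, and do not say how many animals made a library. P-values therefore measure the spread between these libraries, which may be technical. No input RNA and no control precipitation was analysed here, and the RIP animals are not said to overexpress anything. Precipitation, overexpression and any difference in the fraction taken thus cannot be told apart. The 3 libraries of the insoluble fraction, the third group of the series, entered only a few checks.

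YTHDF2 is a cytoplasmic protein that binds N6-methyladenosine (m6A), a methyl mark on adenosines of mRNA, and is best known for recruiting deadenylases that shorten the life of the bound transcript. YTHDF1 belongs to the same family and has been linked to translation of marked mRNAs. In a RIP an antibody pulls down the protein with the RNA attached to it, so a transcript's count reflects both its abundance and its association with the protein. The series takes as its theme genes of mitochondrial morphology, the balance of fusion and fission that shapes mitochondria in neurons and other cells.

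The listed genes are a selection, and their counts summed to between 73851 and 91271 per library. These sums are not sequencing depths, which are unknown here, and scaling between libraries rests on the 194 genes alone. The common biological coefficient of variation was 0.0531 in OE and 0.19 in RIP, while the median coefficient of variation of a gene was close, 8.94% in OE and 9.74% in RIP. In 3 rows of the RIP libraries 1 replicate lay about 10-fold from the other 2: Fis1 with 871, 76 and 752 counts, Snhg11 with 47, 479 and 428, and Tie1 with 65, 693 and 56. None of 21 m6A readers and enzymes, YTHDF1 and YTHDF2 included, was among the joined genes, so the labels were not checked against them. Of the markers of brain cell types, 1 of 25 for neurons (Snhg11) and 0 of 25 each for astrocytes and oligodendrocytes were among the joined genes. So were 4 of 40 microglial, myeloid and immune markers. On 3 lists of endothelial genes, 8 of 25, 11 of 32 and 14 of 45 were joined. These made 32 genes, with Sox18 on 2 of the lists. In these bulk samples fewer cells of a type and less RNA per cell cannot be told apart.

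The 2 groups differed in most genes. There were 191 genes with enough counts for edgeR's quasi-likelihood test, and 156 of them passed it at a Benjamini-Hochberg adjusted p-value under 0.05 (81.7%, called genes below). Among them 72 were higher in RIP (37.7%) and 84 were lower (44.0%). The differences were large: 100 genes (52.4%) were called and at least 2-fold apart, 56 of them higher and 44 lower in RIP. At least 8-fold differences were found for 19 genes called higher and 18 called lower. Normalised counts of the 2 groups did not overlap in 162 of the 191 genes (84.8%). With no scaling beyond the total over the joined genes, the split turned to 88 higher and 67 lower, and the median log2 fold change of RIP over OE moved from -0.10 to 0.20. Upper-quartile scaling moved both the other way, to 66 higher and 96 lower and a median of -0.32. Of the 156 called genes, 132 were called in the same direction under each of 6 other scalings, 66 higher and 66 lower. E230020A03Rik, Spata45 and Acvrl1 had too few counts to be tested.

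**Figure D1:**
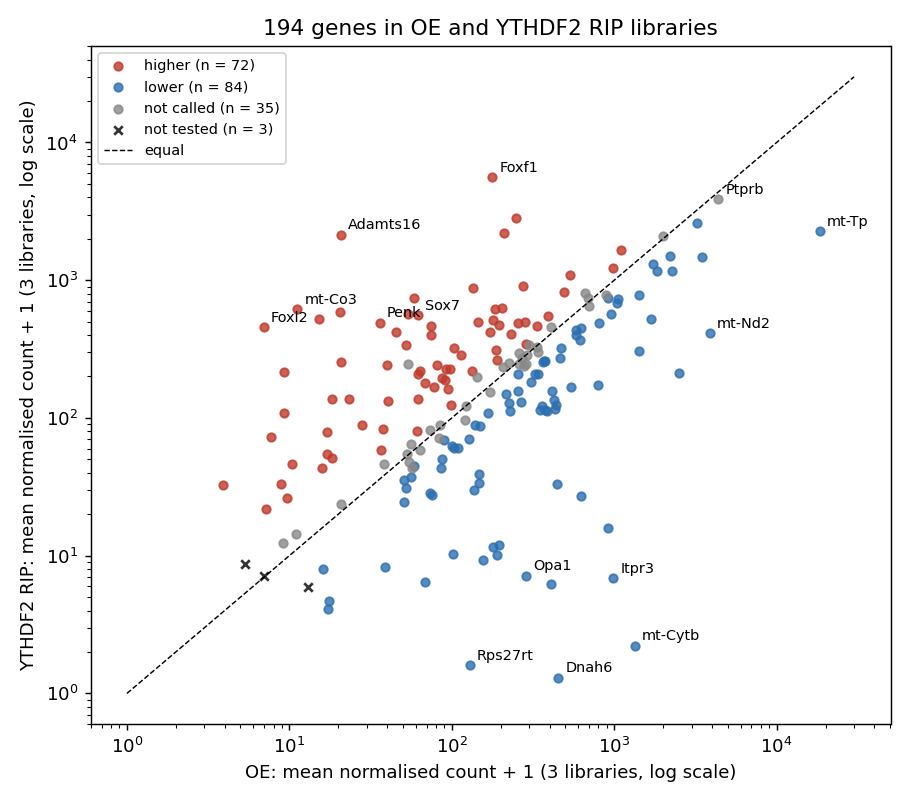
Mean normalised count plus 1 in OE (x axis) and in YTHDF2 RIP (y axis) for each of the 194 joined genes, both on log scales and over 3 libraries. Red genes were called higher in RIP (72), blue genes lower (84), grey genes were not called (35) and crosses were not tested (3). Points lie far on both sides of the dashed line of equal counts.

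Counts in RIP followed those in OE loosely. Across the 194 genes Spearman's rho between summed counts was 0.476 for RIP and OE and 0.983 for OE and the insoluble fraction. These values describe genes, which are not independent replicates. How well the 2 groups matched varied along the table, whose rows run in descending order of identifier. In the first 49 rows rho was 0.535, in the next 48 rows 0.157, in the following 49 rows 0.454 and in the last 48 rows 0.785. Over the same 4 stretches rho between OE and the insoluble fraction stayed between 0.967 and 0.984. The median absolute log2 fold change of RIP over OE was 1.34, 1.72, 1.04 and 0.77 in the 4 stretches, and 9, 18, 8 and 2 genes differed at least 8-fold. Among protein-coding genes alone, rho was -0.00714 over the 41 such rows of the second stretch and 0.771 over the 47 of the last. The place of a row in the table thus moved with the size of its difference, and its part in the results was not tested. Whether the RIP counts stand beside the right gene names is uncertain, and every gene below is named as its row is named.

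**Figure D2:**
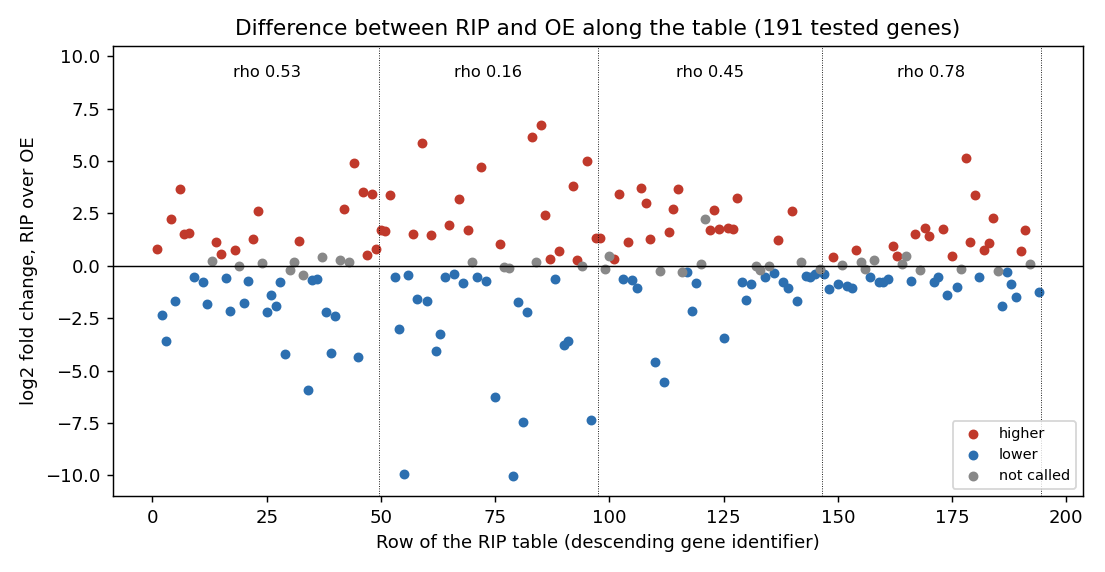
Log2 fold change of RIP over OE (y axis) by row of the RIP table (x axis) for the 191 tested genes, in red where called higher, blue where called lower and grey where not called. Dotted lines divide the table into 4 stretches, and the printed rho is Spearman's correlation of summed RIP and OE counts in each (0.53, 0.16, 0.45 and 0.78). The widest scatter lies in the second stretch.

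Mitochondrially encoded RNAs took a smaller share of the counts in RIP than in OE. The mitochondrial genome gives ribosomal RNAs, transfer RNAs and mRNAs for subunits of the respiratory chain, all cut from long shared transcripts, and in brain these mRNAs and ribosomal RNAs are abundant. The 14 such rows held 27.7%, 27.7% and 28.0% of the joined counts in OE replicates 1 to 3 and 5.89%, 5.92% and 6.08% in RIP. The means were 27.8% ± 0.186 (SD, n = 3) in OE and 5.96% ± 0.1002 (SD, n = 3) in RIP, and the groups did not overlap (exact permutation test, two-sided, p = 0.1, the smallest that 3 against 3 can give). All 14 rows were called, beside 81.7% of all tested genes and 89.4% of those in the second stretch, which holds all 14. In RIP 5 were higher and 9 lower, with a median log2 fold change of -0.47 beside -0.10 over all tested genes. The lower calls of mt-Nd1, mt-Nd5 and mt-Rnr1 were not kept under all scalings.

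The gap in share came mostly from 1 row. mt-Tp, the transfer RNA for proline (chromosome M, 15356 to 15422, minus strand, GRCm38), held 18159, 16947 and 14705 counts in OE and 2453, 2607 and 2417 in RIP. It was the highest of all 194 rows in OE, with 19.9% ± 0.0261 (SD, n = 3) of the joined counts, and the fifth in RIP with 3.04% ± 0.0797. Its log2 fold change was -3.01 ± 0.08 (SE), or 8.07-fold lower in RIP (adjusted p = 3.90e-08). The annotated transcript has only 67 bases, and it is shown because so short an RNA led the OE counts.
mt-Tp: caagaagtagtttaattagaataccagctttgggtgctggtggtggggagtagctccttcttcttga
Per kilobase of annotated transcript this gave a mean of 274100 normalised counts in OE. mt-Rnr2, the large mitochondrial ribosomal RNA, held 13, 4 and 5 counts in OE and 35, 36 and 34 in RIP, which is 4.99 and 20.2 normalised counts per kilobase. It was higher in RIP by a log2 fold change of 1.97 ± 0.30 (SE, adjusted p = 0.000507), and by 2.57 without OE replicate 1. mt-Rnr1, the small ribosomal RNA, was closer, with 97, 79 and 66 counts in OE and 77, 77 and 71 in RIP. Both ribosomal RNAs had low rows in all 6 libraries, although they are abundant in brain. Whether ribosomal RNA was removed before sequencing was not considered here, and the cause of the low counts was not tested.

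Among the 6 rows for complex I subunits, the first complex of the respiratory chain, 2 were higher and 4 lower in RIP. Over all tested genes 37.7% were higher and 44.0% lower. mt-Nd2 held 3673, 3508 and 3277 counts in OE and 458, 390 and 506 in RIP, for a log2 fold change of -3.23 ± 0.11 (SE, adjusted p = 1.41e-07). Its OE libraries lay far above all RIP libraries. mt-Nd3 also stood lower, with 351, 339 and 285 counts in OE and 123, 135 and 141 in RIP. mt-Nd1 and mt-Nd5 differed least, with log2 fold changes of -0.52 and -0.41. In the other direction mt-Nd4l held 4, 2 and 2 counts in OE and 40, 36 and 28 in RIP, for a log2 fold change of 3.37 ± 0.31 (SE, adjusted p = 2.73e-05). mt-Nd4, whose annotated sequence overlaps that of mt-Nd4l, went the same way, from 11, 7 and 6 counts in OE to 29, 28 and 26 in RIP. Of the 50-base words of mt-Nd4l, mt-Nd3 and mt-Nd4, 1.21%, 2.01% and 37.8% occur in no transcript outside the mitochondrial genome. The rest also stand in transcripts of nuclear genes, so these counts are uncertain.

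The 5 rows for complexes III, IV and V held the widest spread of any list, with 2 higher and 3 lower in RIP. The shares over all tested genes were 37.7% higher and 44.0% lower. mt-Cytb, the one mitochondrially encoded subunit of complex III, held 1333, 1221 and 1067 counts in OE and 1, 2 and 1 in RIP. Against a floor of 3 counts per library it was at least 487.2-fold lower in RIP (adjusted p = 1.52e-09). mt-Co1, a core subunit of complex IV (cytochrome c oxidase), stood 16.7-fold lower in RIP, with 206, 178 and 108 counts in OE and 10, 5 and 20 in RIP. mt-Co3, another core subunit of the same complex, went the opposite way, from 18, 8 and 3 counts in OE to 696, 654 and 676 in RIP. Its log2 fold change was 5.85 ± 0.32 (SE, adjusted p = 1.52e-06), and 6.56 without OE replicate 1. mt-Co2 was higher in RIP by a log2 fold change of 1.47, and mt-Atp6, a subunit of ATP synthase (complex V), was lower by one of -1.68. The 3 rows of complex IV therefore did not move together. Words shared with nuclear transcripts again limit these counts. Unique were 0.136% of the words of mt-Co3, 0% of mt-Co2, 0.475% of mt-Atp6 and 48.9% of mt-Co1. All words of mt-Cytb were unique.

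Levels of the 11 mitochondrial mRNA rows also spread widely within each group. In OE the mean per kilobase ran from 6.33 normalised counts for mt-Nd4 to 3728 for mt-Nd2, a ratio of 588.7. In RIP it ran from 1.06 for mt-Cytb to 787 for mt-Co3, a ratio of 742.5. Although these mRNAs derive from shared precursors, neighbouring rows such as mt-Atp6 and mt-Co3 differed widely in OE, with 624.4 and 12.99 normalised counts per kilobase. Only 0.475% and 0.136% of the words of these rows are unique. The contrast may therefore reflect how shared reads were assigned as well as RNA levels. The ends of the ranges at mt-Nd4 (37.8% unique) and mt-Co3 carry the same limit.

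**Figure D3:**
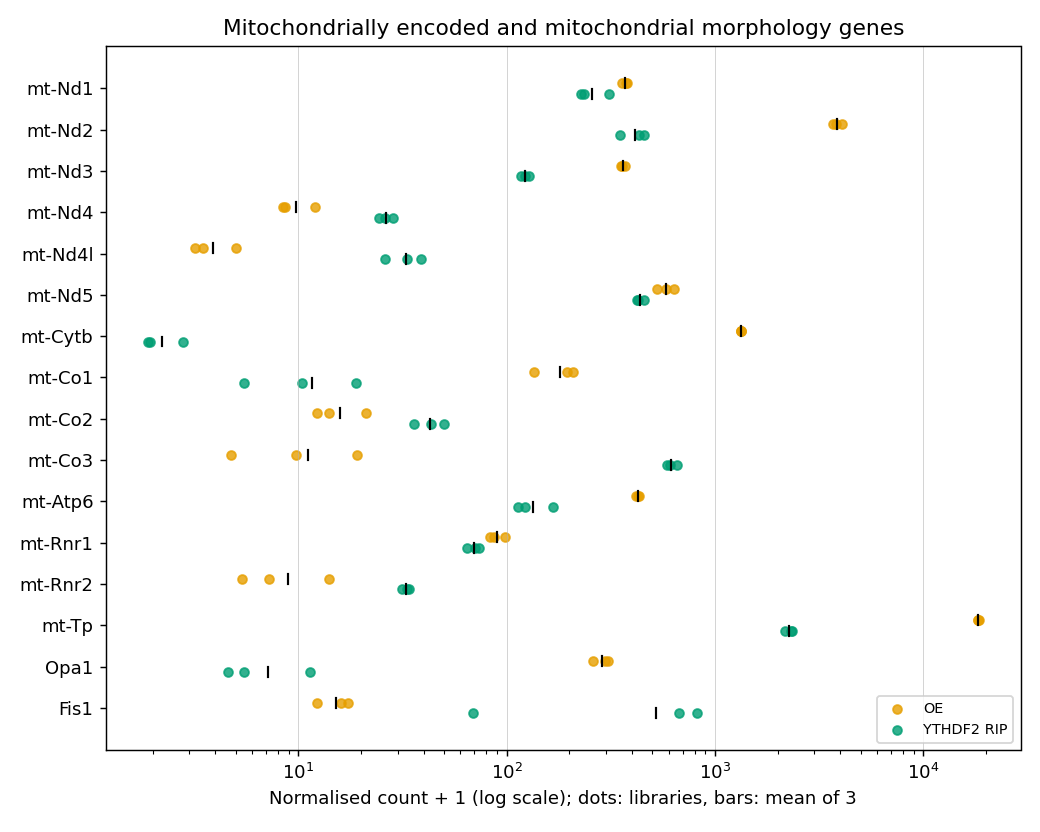
Normalised count plus 1 (x axis, log scale) in each OE library (orange) and each RIP library (green) for the 14 mitochondrially encoded rows and for Opa1 and Fis1, with a black bar at the mean of 3. No row has overlapping groups, and mt-Cytb, mt-Co3, Opa1 and Fis1 lie farthest apart.

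Genes for the fusion and fission of mitochondria were represented by Opa1, which was lower in RIP, and Fis1, which was higher. Opa1, the dynamin-like GTPase that fuses inner mitochondrial membranes (chromosome 16, 29579334 to 29654884), held 305, 270 and 208 counts in OE and 11, 4 and 5 in RIP. Every RIP library thus lay far below every OE library. The log2 fold change was -5.53 ± 0.29 (SE), or 46.1-fold lower in RIP (adjusted p = 1.20e-06). Fis1, an outer-membrane adaptor of mitochondrial fission (chromosome 5, 136953275 to 136966234), held 15, 15 and 9 counts in OE and 871, 76 and 752 in RIP. Its RIP replicate 2 was about 10-fold below the others but still above all OE libraries. The log2 fold change was 5.17 ± 0.96 (SE, adjusted p = 0.00145), and 5.68 ± 0.16 (adjusted p = 3.09e-07) without RIP replicate 2. The fusion gene and the fission gene therefore stood on opposite sides of the comparison.

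Adamts16 had the highest log2 fold change of all tested genes, 6.72 ± 0.21 (SE, adjusted p = 1.18e-07). This gene for a secreted metalloprotease (chromosome 13, 70727802 to 70841811) held 26, 21 and 8 counts in OE and 2314, 2579 and 2160 in RIP. Foxl2, a forkhead transcription factor known from ovary and pituitary, followed with 11, 4 and 2 counts in OE and 531, 495 and 462 in RIP. Its log2 fold change was 6.16 ± 0.32 (SE, adjusted p = 1.20e-06), and 6.97 without OE replicate 1. Foxf1, a forkhead factor of mesenchyme and vessels, was the highest row of RIP, with 6360, 6105 and 5942 counts there against 167, 151 and 157 in OE. The log2 fold change was 4.995 ± 0.10 (SE), or 31.9-fold (adjusted p = 1.23e-08), and its exons overlap those of Gm27530. Hspa12b, an endothelial member of the HSP70 family, held 22, 9 and 21 counts in OE and 550, 734 and 654 in RIP, 30.4-fold higher. Penk, the precursor of the enkephalin opioid peptides, was 13.9-fold higher in RIP, with 42, 31 and 23 counts in OE and 492, 540 and 583 in RIP. Tma7-ps, a processed pseudogene, was 26.1-fold higher, but 31.5% of its words are unique and its count is uncertain. These genes were chosen among those whose groups did not overlap, which held for 84.8% of all tested genes.

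On the lower side stood Dnah6, a heavy chain of the dynein motors of cilia (chromosome 6, 73017606 to 73221651). It held 400, 398 and 415 counts in OE and 0, 1 and 0 in RIP and was at least 164.8-fold lower against 3 counts per library (adjusted p = 2.04e-07). Itpr3, an inositol trisphosphate receptor that releases calcium from the endoplasmic reticulum, held 921, 922 and 810 counts in OE and 12, 4 and 3 in RIP. Its log2 fold change was -7.37 ± 0.29 (SE, adjusted p = 2.92e-07), and -8.22 without RIP replicate 1. Nbeal2, a gene needed for granules of platelets and neutrophils, was 76.9-fold lower, with 442, 364 and 306 counts in OE and 9, 4 and 4 in RIP. Ict1os, an antisense transcript that overlaps Mrpl58, fell in the same range, with 905, 866 and 724 counts in OE and 18, 13 and 18 in RIP, 61.1-fold lower. The use of strand in counting is not stated, so reads of Ict1os and Mrpl58 cannot be told apart. Alpk3, an alpha-kinase known from heart muscle, was 23.8-fold lower in RIP.

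RIP and OE shared 5 of their 10 highest rows, namely mt-Tp, Ptprb, Abcc6, Nos3 and Podxl. Ptprb, an endothelial receptor phosphatase, held 4444, 4067 and 3376 counts in OE and 4960, 3920 and 3844 in RIP and was not called (log2 fold change -0.17 ± 0.12, SE, adjusted p = 0.221). The 10 highest rows of each library held 47.8% ± 0.215 (SD, n = 3) of the counts in OE and 35.8% ± 1.001 in RIP. Without mitochondrially encoded rows the shares were 37.9% and 36.9%.

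Endothelial genes, which mark the lining of blood vessels, went both ways. Of 8 joined rows on a list of endothelial transcription factors, all were called, beside 81.7% of all tested genes. In RIP 5 were higher and 3 lower (37.7% and 44.0% over all tested genes), with a median log2 fold change of 0.59 beside -0.10 over all. Besides Foxl2, whose known sites are outside the endothelium, the higher rows were 3 SOXF factors of vessel development, Sox7, Sox17 and Sox18, and the ETS factor Erg. Sox7 held 52, 58 and 53 counts in OE and 575, 639 and 616 in RIP, 9.20-fold higher (adjusted p = 1.66e-07). Sox18 held 116, 114 and 126 counts in OE and 237, 251 and 225 in RIP, for a log2 fold change of 0.71. For Sox17 the log2 fold change was 0.47 and its call was not kept under all scalings. Thus the SOXF members differed in size but all stood higher in RIP. Erg held 71, 47 and 49 counts in OE and 150, 156 and 141 in RIP, for a log2 fold change of 1.15 ± 0.15 (SE, adjusted p = 0.000200). Ets1, an ETS factor too, stood lower instead, with 341, 342 and 268 counts in OE and 125, 128 and 117 in RIP, for a log2 fold change of -1.64 ± 0.10 (SE, adjusted p = 3.29e-06). Gata2 and Lef1 were also lower in RIP, by log2 fold changes of -0.88 and -0.87.

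Of 10 tested rows for endothelial receptors, 3 were higher, 3 lower and 4 not called, beside 37.7% higher and 44.0% lower of all tested genes. Their median log2 fold change was 0.23, beside -0.10 over all. Robo4, which stabilises the vessel wall, stood highest, with 52, 37 and 32 counts in OE and 467, 494 and 410 in RIP, 9.39-fold higher (adjusted p = 7.19e-07). Adgrf5, an adhesion G protein-coupled receptor, and Cd93, a lectin-like receptor, were higher in RIP by log2 fold changes of 1.02 and 0.75. The VEGF receptors went the other way. Kdr, the main VEGF receptor of blood vessels, held 197, 220 and 186 counts in OE and 131, 148 and 139 in RIP, for a log2 fold change of -0.81 ± 0.12 (SE, adjusted p = 0.000359). Flt4, the VEGF receptor of lymphatic vessels, held 75, 85 and 70 counts in OE and 50, 41 and 48 in RIP, for a log2 fold change of -1.004 ± 0.15 (SE, adjusted p = 0.000399). Both receptors kept their groups apart in all 6 libraries. Notch4 was called lower at -0.30, but it changed sign without scaling beyond the total. Tie1, the orphan partner of the angiopoietin receptor, held 50, 27 and 63 counts in OE and 65, 693 and 56 in RIP and was not called (log2 fold change 2.22 ± 1.01, SE, adjusted p = 0.0730). Without RIP replicate 2 its log2 fold change was 0.09 (adjusted p = 0.820), and without RIP replicate 1 or 3 the row was called at 2.69 (adjusted p = 0.0217) and 2.71 (adjusted p = 0.0314). The log2 fold changes of Dll4, Eng and Ly75 were 0.18, 0.27 and -0.13, and their groups overlapped.

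Of 14 rows for endothelial junctions, barrier and effector functions, 4 were higher, 6 lower and 4 not called. Over all tested genes 37.7% were higher and 44.0% lower. The median log2 fold change of the list was 0.08, beside -0.10 over all. Beside Hspa12b, the row farthest apart was She, an adaptor protein with an SH2 domain, with 445, 443 and 326 counts in OE and 23, 53 and 31 in RIP, 13.7-fold lower (adjusted p = 5.30e-06). Cdh5, the cadherin of endothelial junctions, was lower in RIP by a log2 fold change of -0.87, with 122, 142 and 83 counts in OE and 84, 75 and 69 in RIP. Nos3, the endothelial nitric oxide synthase, held 2072, 2031 and 1818 counts in OE and 1660, 1672 and 1608 in RIP, for a log2 fold change of -0.54 ± 0.06 (SE, adjusted p = 7.54e-05). Most of this list thus differed by less than 2-fold. Cldn5, the claudin that seals the blood-brain barrier, had few counts in both groups (8, 6 and 8 against 13, 13 and 11) and was not called (adjusted p = 0.238). Podxl, Fgd5 and Vwf were likewise not called, at 0.09, 0.10 and 0.07. Ushbp1, called at -0.30, changed sign without scaling beyond the total, and the calls of Cyyr1 and Col15a1 were not kept under all scalings.

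**Figure D4:**
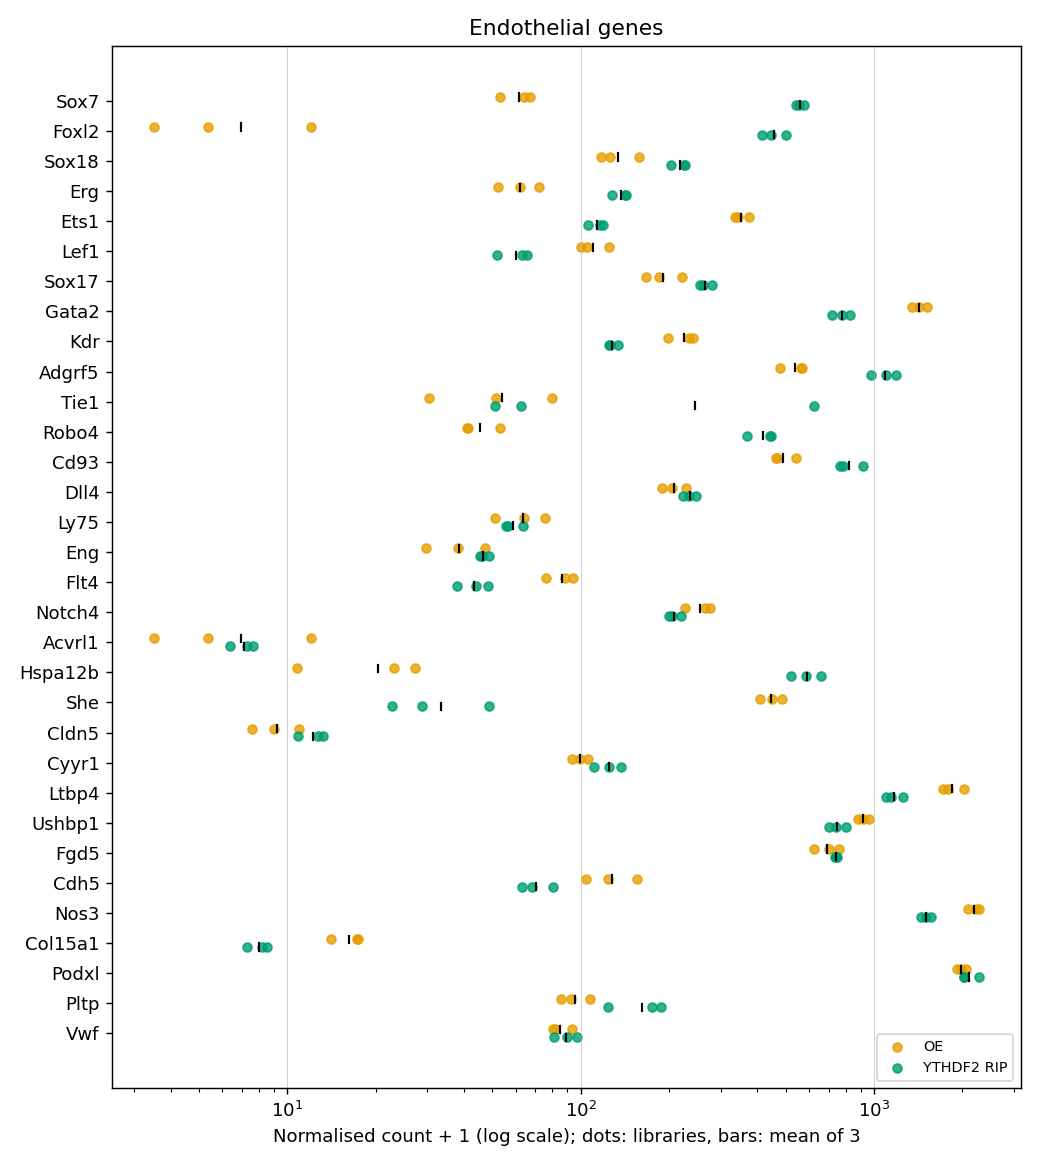
Normalised count plus 1 (x axis, log scale) in each OE library (orange) and each RIP library (green) for the 32 joined rows on the lists of endothelial transcription factors, receptors, and junction, barrier and effector genes, with a black bar at the mean of 3. Foxl2, Hspa12b, Sox7 and Robo4 stand to the right in RIP and She to the left, while rows such as Podxl, Vwf and Dll4 overlap, and 1 RIP library of Tie1 lies apart.

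The 4 rows of cytosolic ribosomal protein genes, subunits of the translating ribosome, were all called, 2 higher and 2 lower, beside 81.7% called of all tested genes. Rps28 held 274, 255 and 218 counts in OE and 1041, 1047 and 896 in RIP, 3.30-fold higher (adjusted p = 1.17e-06), and its exons overlap those of Kank3. Rps29 held 137, 113 and 140 counts in OE and 52, 35 and 20 in RIP, 4.42-fold lower (adjusted p = 0.000420). Rps27rt, a retrotransposed copy, held 137, 112 and 99 counts in OE and 0, 2 and 0 in RIP and was at least 46.7-fold lower, and Rpl39-ps, a pseudogene, was 12.6-fold higher. Members of this family therefore stood on both sides. Only 8.92% of the words of Rps27rt, 49.0% of Rpl39-ps and 73.5% of Rps29 are unique, so these 3 counts are uncertain.

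Of 4 rows on a list of microglial, myeloid and immune markers, 2 were higher and 2 lower (37.7% and 44.0% over all tested genes). Chil3, a chitinase-like protein of macrophages, held 52, 45 and 45 counts in OE and 554, 702 and 616 in RIP, 10.8-fold higher (adjusted p = 1.60e-07), although 70.6% of its words are unique. Ngp, a neutrophil granule protein, was 3.43-fold higher, and Lcn2, a secreted iron-scavenging protein, was lower by a log2 fold change of -0.53, a call that was not kept under all scalings. Nbeal2, above, was the other lower row. The neuronal row Snhg11, a host gene of small nucleolar RNAs, was not called (log2 fold change -0.02 ± 0.65, SE, adjusted p = 0.977), with 287, 242 and 256 counts in OE. Without RIP replicate 1 it was called higher at 0.50 (adjusted p = 0.00321).

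Predicted genes, clone-named genes and Rik transcripts made up 38 of the joined rows, 35 of them in the first stretch of the table. Of 37 tested, 11 were higher, 17 lower and 9 not called, beside 37.7% higher and 44.0% lower of all tested genes, and their median log2 fold change was -0.10, as over all tested genes. Gm45694 held 37, 65 and 52 counts in OE and 690, 865 and 880 in RIP, 12.9-fold higher (adjusted p = 2.26e-06). Gm12191, a processed pseudogene, held 187, 177 and 165 counts in OE and 13, 8 and 15 in RIP, 17.7-fold lower, but none of its words is unique. By gene type, 57 of 142 tested protein-coding genes were higher and 60 lower, against 15 and 24 of 49 other genes.

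**Figure D5:**
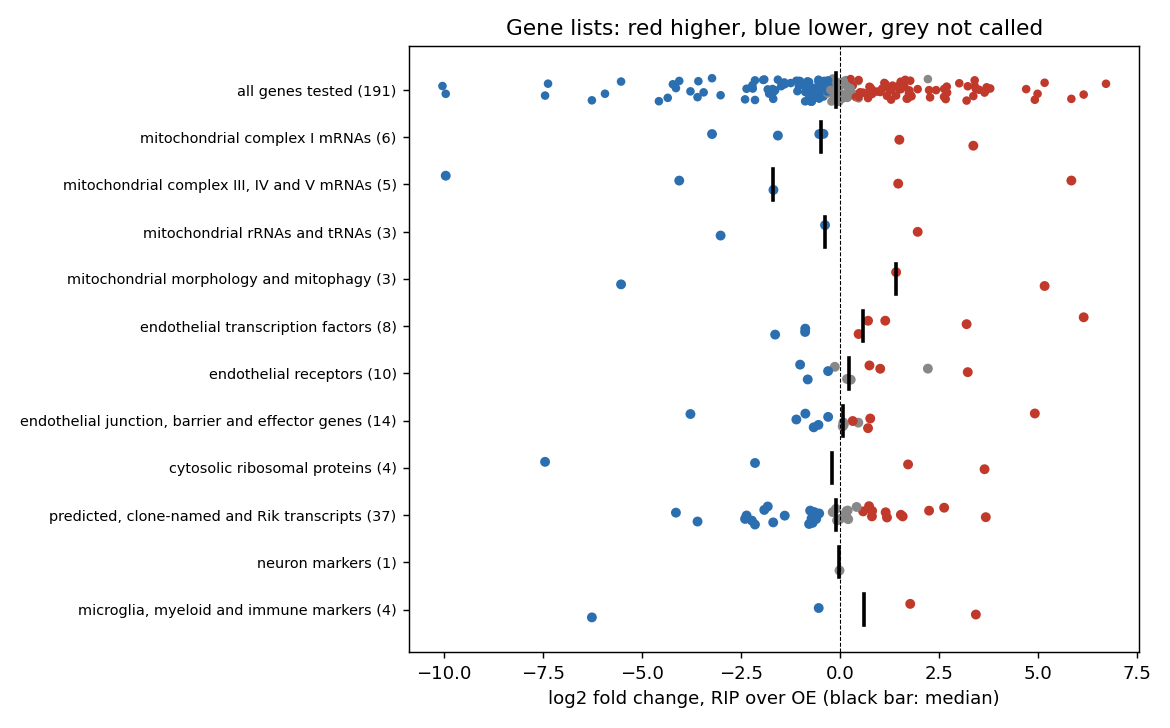
Log2 fold change of RIP over OE (x axis) for the tested members of each gene list and for all 191 tested genes (top), with the number tested in brackets, a black bar at the median, red for genes called higher, blue for lower and grey for not called. Every list with at least 2 tested members holds called genes on both sides of 0.

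Sites of m6A most often lie in a short sequence context of which GGACT is a common form, so the longest annotated transcript of each gene was searched for GGACT on its sense strand. The motif was present in 87.5% of the 72 genes higher in RIP, in 79.8% of the 84 lower and in 97.1% of the 35 not called. Among protein-coding genes the shares were 94.7%, 83.3% and 100%, beside 88.3% of 21951 protein-coding genes of the annotation. The protein-coding genes include mitochondrially encoded mRNAs, whose transcripts are made inside mitochondria. Of these, mt-Cytb, mt-Nd1, mt-Nd3, mt-Nd5, mt-Co1 and mt-Atp6, all called lower, held no GGACT. The motif was present in mt-Nd2, also lower, and in mt-Nd4, mt-Nd4l, mt-Co2 and mt-Co3, which were higher. The lower share in RIP therefore rests partly on these rows. Median density in protein-coding genes was 1.26 per kilobase in those higher, 1.14 in those lower and 1.34 in those not called, beside 1.003 over the annotation. Longer transcripts hold the motif more often, and the median longest transcript of the protein-coding genes was 3413 bases in those higher, 3613 in those lower and 4234 in those not called. A match is not a methylated site, and no count here measures methylation. The stretches below show the first GGACT (in capitals) of the coding sequence, with 13 bases on each side, for genes that stood far apart on either side of the comparison: Adamts16, Shroom4 and Fis1 were higher in RIP, and Opa1, Itpr3, Nbeal2 and Dnah6 were lower.
Adamts16: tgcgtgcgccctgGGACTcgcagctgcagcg
Shroom4: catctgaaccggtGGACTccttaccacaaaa
Fis1: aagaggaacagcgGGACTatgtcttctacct
Opa1: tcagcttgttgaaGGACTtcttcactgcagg
Itpr3: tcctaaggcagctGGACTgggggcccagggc
Nbeal2: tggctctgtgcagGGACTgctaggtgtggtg
Dnah6: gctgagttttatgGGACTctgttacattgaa
The coding sequences held 10 such matches in Adamts16, 6 in Shroom4, 4 in Fis1, 3 in Opa1, 11 in Itpr3, 10 in Nbeal2 and 10 in Dnah6. In the coding sequences of Foxl2, Foxf1 and mt-Cytb none was found. Over the whole longest transcript these genes held 4, 1 and 0 matches. Among these chosen genes, those with the letters in the coding sequence thus stood on both sides. Of those without, Foxl2 and Foxf1 were higher, and the only lower gene was the mitochondrially encoded mt-Cytb. Shroom4, an actin-binding protein chosen here after its values were seen, held 204, 175 and 184 counts in OE and 2327, 2502 and 2438 in RIP (log2 fold change 3.41 ± 0.08, SE, adjusted p = 1.71e-08).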

How the data were processed

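Raw counts per gene and library were deposited by the authors and are named so per the file headers. HISAT2 2.1.0, HTSeq 0.6.0, Bowtie2 2.2.3 and the mm10 build appear in the submitters' processing notes without a role. Annotation, strand use and the rule that selected the listed genes are not given in the sources used here. The tables were joined by identifier (194 of 194 matched GENCODE M21, GRCm38, the build of mm10, 189 with the same symbol).

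The 3 OE and 3 RIP libraries, named by their titles, were fitted with edgeR 4.0.16 (R 4.3.3): filterByExpr with a minimum count of 10 and minimum total of 15 (191 of 194 genes), TMM scaling, the quasi-likelihood test without a replicate block, and Benjamini-Hochberg adjustment over all tested genes. To normalise, each count was divided by its library's effective size, itself expressed relative to the mean of the 6. Standard errors were taken from the fold change and the quasi-likelihood F. Floors of 3 counts cover counting error only. Tested on 5 simulated sets of 191 genes, the procedure recovered 90.5% of 200 genes changed 2-fold and called 0.662% of 755 unchanged genes. In these sets most genes were unchanged, changes went up or down at random, and both groups shared 1 dispersion trend. In the data 156 of 191 genes were called and the spread differed between groups. The simulated rates are therefore not the error rates of this comparison. Replicates differed beyond sampling noise in all pairs (chi-square over degrees of freedom from 1.54 to 12.8). The 6 other scalings were upper-quartile, RLE, total count, TMM without mitochondrially encoded genes, DESeq2 1.42.0, and TMM from the rows in the lower part of the table.

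Unique words are 50-base words of the longest transcript found in no other gene's transcripts on either strand. Mitochondrially encoded genes were compared with nuclear genes only. Exons of 72 of the 194 genes overlap those of another gene.

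Members, lists and tests were chosen with earlier results of these data known. Genes were named by rule: the 8 called genes highest and the 8 lowest without overlap, the highest and lowest tested member of each list, Opa1 and Fis1. Further list members were added after their values were seen. Fold changes and p-values of the deposited tables were not used. Results for some withheld genes are not reported here.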

Additional observations from a re-analysis of the deposited data

How the results depend on the processing

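The number of called genes, 156, stayed between 151 and 162 in the alternative scalings, DESeq2, no filter, robust dispersion, all 9 libraries in 1 fit and the replicate block, and between 152 and 157 when each library was left out. Counting only called genes that were also at least 2-fold apart gave 100, of which 44 were lower, by construction. Among alternatives chosen after seeing the data, 158 genes were called without the 3 rows with an aberrant count, 131 with only rows at least 80% unique (fewer genes tested) and 159 with scaling on the lower part of the table (rows of its last 2 stretches). The fit with the replicate block called 151 genes. Same-numbered libraries did not deviate together (correlations of 0.0588, -0.214 and -0.12), and the shared numbers were treated as names only.

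Of the 29 genes named by rule, 28 kept their direction and their call in each alternative that gave them a value, other than the fold minimum. For mt-Co3, Fis1, Tma7-ps, Rps27rt, mt-Nd4l, Rpl39-ps, Gm12191 and Chil3, 1 of these later alternatives left the row out. Snhg11 was the exception. From -0.02 its log2 fold change turned to 0.0815 with RLE, 0.31 with total counts, 0.0801 with DESeq2, 0.0788 in the fit of 9 libraries, 0.0394 with unique rows and 0.12 with scaling on the lower part, and it ran from -0.43 to 0.50 when each library was left out (0.11 without OE replicate 3, 0.50 without RIP replicate 1), and the cause was not tested. Without RIP replicate 2 the fitted log2 fold change of Dnah6 moved from -10.04 to -11.79 and that of Rps27rt from -7.45 to -9.97, as their RIP counts were then all 0.

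The share of mitochondrially encoded genes was 7.76% in OE and 2.79% in RIP without ribosomal and transfer RNAs, by construction. Leaving out 1 library gave from 27.7% to 27.8% in OE and from 5.91% to 6.00% in RIP. The depth of the libraries is unknown, so directions hold only relative to the joined genes.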

Other observations

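The genes in this section were chosen after their values were seen, and no set of them was tested. Rows of genes known from striatal projection neurons went different ways in these mPFC libraries. Penk was higher in RIP, as given above. Drd2, a dopamine receptor of the same neurons that carry Penk, held 100, 93 and 80 counts in OE and 15, 12 and 3 in RIP, for a log2 fold change of -3.44 ± 0.34 (SE, adjusted p = 4.50e-05). Rxrg, a retinoid receptor, was not called (79, 89 and 58 counts in OE, 79, 82 and 70 in RIP).

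Some joined genes lie beside each other in the genome. Fendrr, the long noncoding RNA next to Foxf1, was higher in RIP like its neighbour but less so, with 163, 145 and 155 counts in OE and 500, 472 and 410 in RIP (log2 fold change 1.30 ± 0.13, SE, adjusted p = 4.50e-05). Tbx3os1, the transcript opposite the T-box gene Tbx3, held 793, 717 and 652 counts in OE and 209, 186 and 174 in RIP (log2 fold change -2.20 ± 0.10, SE), and Tbx3 itself was lower, at -0.52. Their exons overlap, and without strand their reads cannot be told apart. The T-box genes Tbx1 and Tbx2 were lower too, at -1.48 and -1.24. Tbx2 held 3476, 3193 and 2740 counts in OE and 1507, 1704 and 1606 in RIP, which placed it among the 10 highest rows of OE.

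Rows of genes for motile cilia differed in direction. Ccdc153 held 250, 253 and 172 counts in OE and 3401, 3123 and 2779 in RIP (log2 fold change 3.52 ± 0.13, SE, adjusted p = 2.04e-07). Hydin, a protein of the ciliary central pair, was lower at -0.54, and Dnah6 was at least 164.8-fold lower, as above. Genes of vascular smooth muscle and pericytes likewise differed: Myh11 was higher at 1.12, Des lower at -0.64, and Notch3 was not called (adjusted p = 0.0543).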
